A study of Limonium bicolor with 5 samples.

Results

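Stage B, the stage at which leaves of Limonium bicolor carry differentiated salt glands, is set here against stage A, in which the leaf is still undifferentiated. All genes of the table were taken: 18165 of 18327 reached 1 RPM (reads scaled to a common library total) in at least 1 of the 5 stages, and each was compared between 2 of the 5 libraries. Limonium bicolor is a salt-secreting plant. The leaves were the first true leaves of plants in tissue culture, with no other treatment named. The stage B library came from about 4000 pooled leaves and the stage A library from about 5000. The later stages, used below for levels only, had differentiated stomata (stage C), a differentiated epidermis (stage D) or were mature leaves (stage E). Poly(A) RNA was sequenced. The labels speak of a pair of lanes per stage as biological replicates, but the table has 1 column per stage, so no difference below has a replicate check and no p-value is given.

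A salt gland is a small group of epidermal cells that takes up ions from the leaf and secretes them through pores in its cuticle. Arabidopsis has no salt glands, and the genes are named here by the Arabidopsis locus the table pairs with them, so roles given below are roles known from Arabidopsis. In that plant, trichomes, root hairs and stomata arise from the same cell layer. A complex of MYB, bHLH and WD40 proteins sets trichome fate, single-repeat MYB proteins inhibit it, and a series of bHLH proteins leads cells through the stomatal lineage. No marker of salt gland cells was available, so the stage label itself could not be checked by such a gene.

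The libraries held 16556653 reads for stage B and 5939374 reads for stage A. The detection floor of 3 reads was 0.181 RPM in stage B, against 0.505 in stage A. A gene was called when log2((stage B + 1)/(stage A + 1)) reached 1 in size and the higher of the 2 stages reached 5 RPM. By this rule 1920 of 18165 genes (10.6%) were called, 1357 higher in stage B (7.47%) and 563 lower (3.10%). The median over all genes was 0.10. Median-of-ratios scaling, which sets the bulk of genes equal between stages, lowered that median by 0.10 and gave 1766 called genes (9.72%), 969 higher (5.33%) and 797 lower (4.39%). Folds are ratios of RPM, and the interval beside each is the exact 95% interval from read counts, which covers counting error only. It lay wholly at 2-fold or beyond for 1081 genes (5.95%), made up of 723 that rose (3.98%) and 358 that fell (1.97%). Among the 16064 genes whose description names a function, 7.12% were called higher and 3.16% lower. Just inside the threshold lay 393 called genes with a log2 size between 1 and 1.1, and just outside it 484 genes between 0.9 and 1. RPM is not divided by gene length, so levels are compared only within a gene. In bulk tissue, fewer cells of a type and less RNA per cell cannot be told apart.

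**Figure D1:**
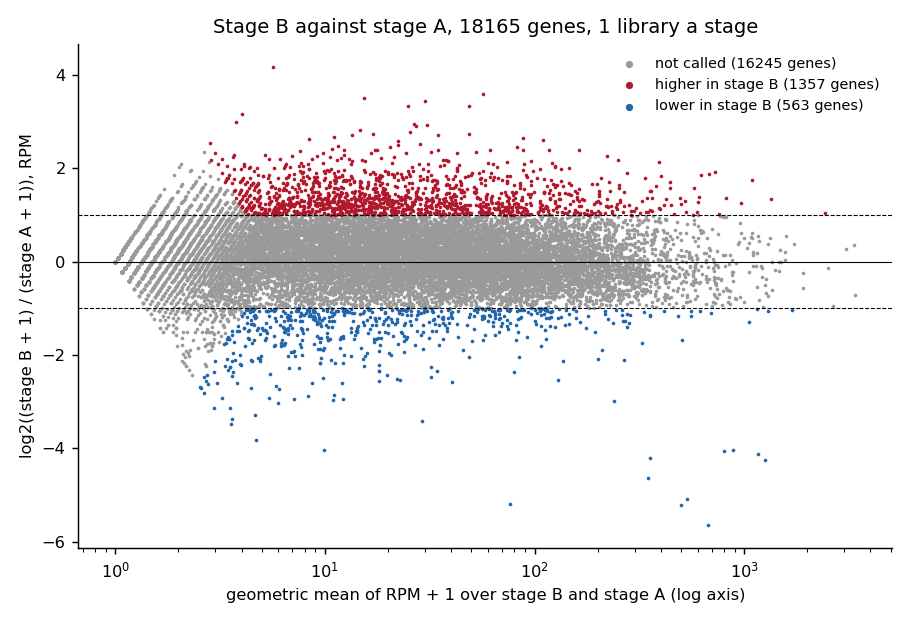
Each point is 1 of 18165 genes, with the geometric mean of RPM + 1 over stage B and stage A on a log axis (x) and the log2 difference of stage B minus stage A (y); dashed lines mark the threshold of 1. The 1357 genes called higher are red and the 563 called lower are blue, and a few loci near the lower edge at high expression stand apart in stage A.

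Genes of chlorophyll synthesis were higher in stage B. Of 21 measured genes of tetrapyrrole and chlorophyll synthesis, 12 were higher and 0 lower, with a median log2 difference of 1.24 against 0.10 for all genes, and the count after scaling was also 12. The calls ran from the entry of the pathway to its late steps. Glutamyl-tRNA reductase (AT1G58290), which makes the committed step, had 146 RPM in stage B, against 48.5 in stage A, a rise of 3.01-fold (2.66 to 3.41). Glutamate-1-semialdehyde aminomutase (AT5G63570), the next enzyme, had 79.2 RPM in stage B, against 16.7 in stage A, a rise of 4.75-fold (3.87 to 5.89). A magnesium chelatase subunit (AT5G45930), at the branch from heme to chlorophyll, had 243 RPM in stage B, against 72.9 in stage A, a rise of 3.34-fold (3.02 to 3.69). Protochlorophyllide oxidoreductase B (AT4G27440), which performs the light-dependent step, rose 2.45-fold (2.27 to 2.65). The 9 members that were not called included protochlorophyllide oxidoreductases A and C, each just below the threshold with a log2 difference of 0.95. They also included both ferrochelatases, which divert the pathway to heme. Ferrochelatase 1 (AT5G26030) had 36.9 RPM in stage B, against 39.2 in stage A.

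Nuclear genes of the light reactions followed the same direction. Of 76 measured, 42 were higher (35 after scaling) and 2 were lower, with a median of 1.08. A light-harvesting protein of photosystem II (AT2G05100) had 529.8 RPM in stage B, against 116 in stage A, a rise of 4.56-fold (4.22 to 4.94). PsbS (AT1G44575), which senses lumen acidity in photoprotection, had 603 RPM in stage B, against 211 in stage A, a rise of 2.86-fold (2.70 to 3.04). Subunit O of photosystem I (AT1G08380) rose 3.28-fold (3.04 to 3.54), and the extrinsic oxygen-evolving protein PsbO (AT5G66570) rose 2.88-fold (2.68 to 3.11). PsbS, subunit O and PsbO were chosen after their values were seen. The members that fell were both light-harvesting genes: AT3G27690 had 2.54 RPM in stage B, against 10.8 in stage A, and AT5G01530 had 7.67 RPM in stage B, against 22.2 in stage A. Light-harvesting genes are near-identical copies among which reads can be split, so their single values are uncertain.

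Genes of carbon fixation and photorespiration had no member called lower. Of 33 measured, 20 were higher (17 after scaling), with a median of 1.17. Carbonic anhydrases, which interconvert carbon dioxide and bicarbonate, supplied the 3 members that rose most. Carbonic anhydrase 2 (AT5G14740) had 38.1 RPM in stage B, against 4.55 in stage A, a rise of 8.38-fold (5.71 to 12.8). Beta carbonic anhydrase 4 (AT1G70410) had 16.2 RPM in stage B, against 3.03 in stage A, a rise of 5.34-fold (3.32 to 9.15). For beta carbonic anhydrase 3 (AT1G23730) the 3 reads of stage A leave a wide interval, 11.7-fold with bounds of 3.89 and 57.8. The 2 Calvin cycle enzymes D-ribulose-5-phosphate-3-epimerase (AT5G61410) and phosphoribulokinase (AT1G32060) rose 4.02-fold (3.58 to 4.53) and 2.52-fold (2.39 to 2.66). In photorespiration, the H protein of glycine decarboxylase (AT2G35370) had 82.3 RPM in stage B, against 20.7 in stage A, a rise of 3.97-fold (3.30 to 4.82). Hydroxypyruvate reductase (AT1G68010), a peroxisomal enzyme of the same cycle, rose 3.17-fold (2.93 to 3.44). These 4 enzymes, from the epimerase on, were chosen after their values were seen.

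The levels of several of these genes were higher again at later stages. Rubisco activase (AT2G39730) had 326, 1185, 9581, 25701 and 7656 RPM over stages A to E. Carbonic anhydrase 2 ran 4.55, 38.1, 155, 3179 and 425 RPM over the same stages. The summed level of the 21 tetrapyrrole genes was 1878, 3904, 7098, 8831 and 3421 RPM. Glutamate-1-semialdehyde aminomutase (AT5G63570) had its highest value of all 5 stages in stage B.

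Proteins that build and maintain the plastid were also higher, in a smaller share of members. Of 54 measured genes for plastid transcription, protein import and proteolysis, 9 were higher (16.7%, against 7.47% of all genes) and 0 lower. Their median was 0.44. Plastid transcriptionally active 5 (AT4G13670), found with the plastid RNA polymerase complex, had 15.7 RPM in stage B, against 3.20 in stage A, a rise of 4.91-fold (3.08 to 8.29). FTSH protease 8 (AT1G06430), which removes damaged photosystem II proteins, rose 3.79-fold (3.07 to 4.74). The list of Rab GTPases and coat proteins held a plastid protein as its largest rise. AT4G20360, described as RAB GTPase homolog E1B, is known as the plastid elongation factor Tu, and had 762 RPM in stage B against 211 RPM in stage A.

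Loci of the plastid genome went the other way in number. Of 87 measured, 35 were lower and 4 higher, a share called of 44.8%, with a median of -0.90. They included 14 loci that shared all 5 values with another plastid locus, as the copies of the inverted repeat do. The 4 that rose are photosynthetic subunits, but such subunits also fell: of 19 photosystem loci 3 were higher and 3 lower, with a median of -0.06, and of 6 ATP synthase loci 3 were lower and 0 higher. The large subunit of Rubisco (ATCG00490) had 20.2 RPM in stage B, against 4.71 in stage A, a rise of 4.28-fold (2.91 to 6.54). PsbD (ATCG00270), the D2 reaction centre protein, had 39.6 RPM in stage B, against 10.3 in stage A, and PsbC (ATCG00280), an inner antenna, had 129 RPM in stage B, against 49.5 in stage A. PsbT (ATCG00690), a small subunit of photosystem II, had 20.8 RPM in stage B, against 9.09 in stage A, and was not called after scaling. Loci for the plastid's own expression machinery were called in 1 direction. Of 24 plastid ribosomal protein loci 13 fell and 0 rose, and of 4 RNA polymerase subunits 3 fell and 0 rose. Ribosomal protein S19 (ATCG00820) had 1.09 RPM in stage B, against 16.0 in stage A, a fall of 14.7-fold (8.83 to 25.9). The alpha subunit of the polymerase (ATCG00740) had 5.19 RPM in stage B, against 23.7 in stage A, a fall of 4.57-fold (3.47 to 6.05). Of 11 loci of the NDH complex 5 fell, among them subunit H (ATCG01110) with 3.87 RPM in stage B, against 28.6 in stage A. Ycf1 (ATCG01130) had 84.6 RPM in stage B, against 676 in stage A. Most plastid messages carry no stable poly(A) tail and poly(A) RNA was sequenced, so these values sample the plastid RNA pool only in part.

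**Figure D2:**
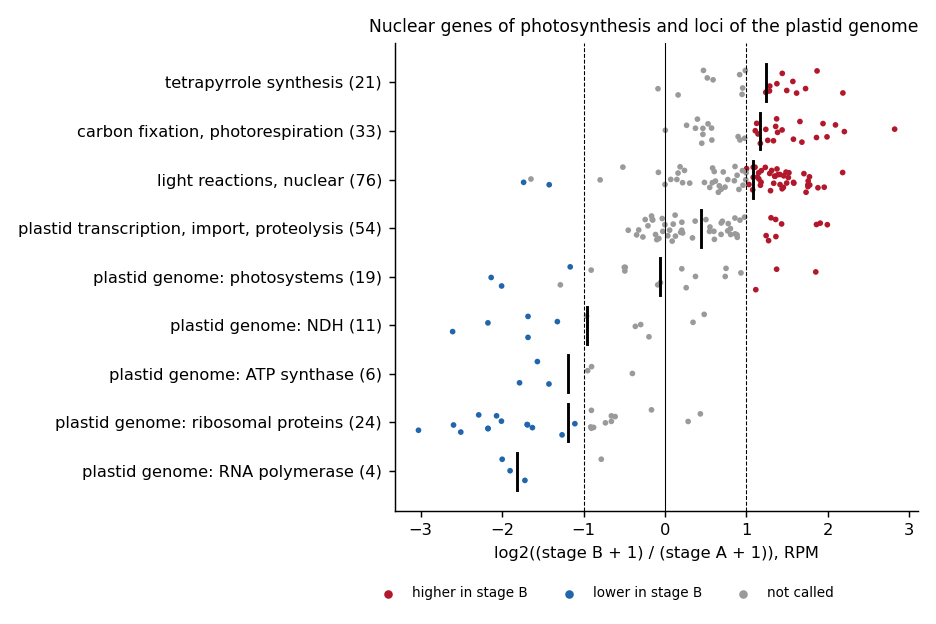
Each point is 1 gene, placed by its log2 difference of stage B minus stage A on RPM + 1 (x) in 9 lists (rows, number of measured members in parentheses); black bars are medians and dashed lines mark the threshold of 1. The 4 rows of nuclear genes have medians between 0.44 and 1.24, and the 5 rows of plastid genome loci have medians between -1.81 and -0.06.

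Few transcription factors of epidermal cell fate were called. The list for patterning of trichomes and root hairs has 20 measured genes, of which 1 rose and 3 fell. The share that rose was below the 7.47% of all genes. The share that fell was above the 3.10% of all genes. The 3 that fell are the closely related R2R3 MYB proteins that activate hair or non-hair fate in Arabidopsis. GLABRA1 (GL1, AT3G27920) had 11.5 RPM in stage B, against 31.3 in stage A, a fall of 2.73-fold (2.22 to 3.36). WEREWOLF (WER, AT5G14750) had 63.4 RPM in stage B, against 161 in stage A, a fall of 2.53-fold (2.32 to 2.77). MYB23 (AT5G40330) had 46.6 RPM in stage B, against 113 in stage A, a fall of 2.42-fold (2.17 to 2.68). The bHLH partners of these MYB proteins did not pass the rule and had higher values in stage B. GLABRA3 (GL3, AT5G41315) had 36.1 RPM in stage B, against 20.5 in stage A, ENHANCER OF GLABRA3 (EGL3, AT1G63650) had 25.0 RPM in stage B, against 14 in stage A, and TT8 (AT4G09820) had 36.1 RPM in stage B, against 20.7 in stage A. The 3 MYB genes are close relatives, so their single values are uncertain. GL3 and TT8 had near-equal values in both stages, and whether they stand for separate genes here was not tested. The WD40 partner TTG1 (AT5G24520) had 7.85 RPM in stage B, against 9.60 in stage A.

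Among the single-repeat MYB inhibitors, ETC1 (AT1G01380) was the member that rose, with 28.4 RPM in stage B, against 12.3 in stage A, 2.31-fold (1.80 to 3.0). Its interval did not lie wholly at 2-fold or beyond. The other inhibitors were not called. CAPRICE (AT2G46410) had 52.2 RPM in stage B, against 70.7 in stage A, and TRIPTYCHON (AT5G53200) had 18.1 RPM in stage B, against 32.5 in stage A. GLABRA2 (AT1G79840), the homeodomain protein downstream of the complex, had 13.3 RPM in stage B, against 13 in stage A. It belongs to the HD-ZIP IV family, which specifies epidermis, and of 12 measured members of that family 0 were called. ATML1 (AT4G21750) had 51.3 RPM in stage B, against 58.8 in stage A, and PDF2 (AT4G04890) had 41.6 RPM in stage B, against 45.6 in stage A.

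Proteins whose description names a MYB domain formed a list that leaves out MYB proteins described otherwise, such as ETC1. Of its 131 measured members, 16 were lower (12.2%, against 3.10% of all genes) and 0 higher, with a median of -0.18. The counts were 16 and 0 after scaling too. The largest falls were in MYB110 (AT3G29020), with 2.90 RPM in stage B, against 29.3 in stage A, 10.1-fold (7.30 to 14.2), and in LOF1 (MYB117, AT1G26780), which shapes organ boundaries. LOF1 had 3.08 RPM in stage B, against 28.8 in stage A, a fall of 9.35-fold (6.80 to 13). Regulators of pigment were another group of these, chosen after their values were seen. PAP1 (MYB75, AT1G56650), an activator of anthocyanin synthesis, had 13.1 RPM in stage B, against 41.9 in stage A. MYB114 (AT1G66380) had 11.2 RPM in stage B, against 45.8 in stage A, and MYB90 (AT1G66390) had 5.68 RPM in stage B, against 15.2 in stage A. These 3 are close paralogs, so their single values are uncertain. MYB111 (AT5G49330), an activator of flavonol synthesis, had 10.3 RPM in stage B, against 21.6 in stage A.

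Genes for making phenolic compounds were called lower in a larger share than all genes. Of 30 genes of phenylpropanoid and flavonoid synthesis, 6 were lower and 3 higher (7 and 1 after scaling). The share called lower was above the 3.10% of all genes. The share called higher was near the 7.47% of all genes. Flavonol synthase 4 (AT5G63595) had 9.24 RPM in stage B, against 39.2 in stage A, a fall of 4.25-fold (3.45 to 5.24). Flavonol synthase 2 (AT5G63580) fell 4.15-fold (3.13 to 5.52). Phenylalanine ammonia-lyase 1 (AT2G37040), which feeds the whole pathway, had 808 RPM in stage B, against 1638 in stage A, and flavanone 3-hydroxylase (AT3G51240) had 8.94 RPM in stage B, against 26.1 in stage A. Both were chosen after their values were seen. Among the risers, a chalcone isomerase family protein (AT1G53520) had 128 RPM in stage B, against 56.2 in stage A.

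Stage B precedes the stage whose label names stomata. Of 16 measured genes of that lineage, 3 were higher (18.8%) and 1 lower (6.25%), beside 7.47% and 3.10% of all genes. The list as a whole did not rise: its median was 0.08, and -0.45 over the 12 members that reached 5 RPM. SPEECHLESS (SPCH, AT5G53210), the bHLH protein that starts the lineage, had 26.7 RPM in stage B, against 11.3 in stage A, a rise of 2.37-fold (1.83 to 3.11). TOO MANY MOUTHS (TMM, AT1G80080), a receptor-like protein that spaces stomata, had 14.9 RPM in stage B, against 2.86 in stage A, a rise of 5.19-fold (3.18 to 9.06). SDD1 (AT1G04110), a protease that limits stomatal density, had 7.73 RPM in stage B, against 1.18 in stage A, a rise of 6.56-fold (3.09 to 16.6). Later and rarer members were not called. MUTE (AT3G06120), which ends the stem-cell phase, had 1.03 RPM in stage B, against 0.168 in stage A, which is 1 read. FAMA (AT3G24140), which acts in guard cell formation, had 10.4 RPM in stage B, against 16.7 in stage A. The signal peptide EPF2 (AT1G34245) had 2.17 RPM in stage B, against 0.337 in stage A, 6.46-fold with an interval of 1.66 to 55.4. The member that fell is the receptor kinase ERECTA (AT2G26330), which also controls growth, with 1176 RPM in stage B, against 2415 in stage A, 2.05-fold (2.01 to 2.10). Over the 5 stages, SPCH had 11.3, 26.7, 5.46, 0.916 and 0.618 RPM and was highest in stage B, whereas SDD1 had 1.18, 7.73, 26.2, 10.4 and 0.541 RPM and was highest in stage C. Of 8 guard cell genes 0 were higher and 1 was lower: the potassium channel KAT1 (AT5G46240), with 15 RPM in stage B, against 32.0 in stage A.

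**Figure D3:**
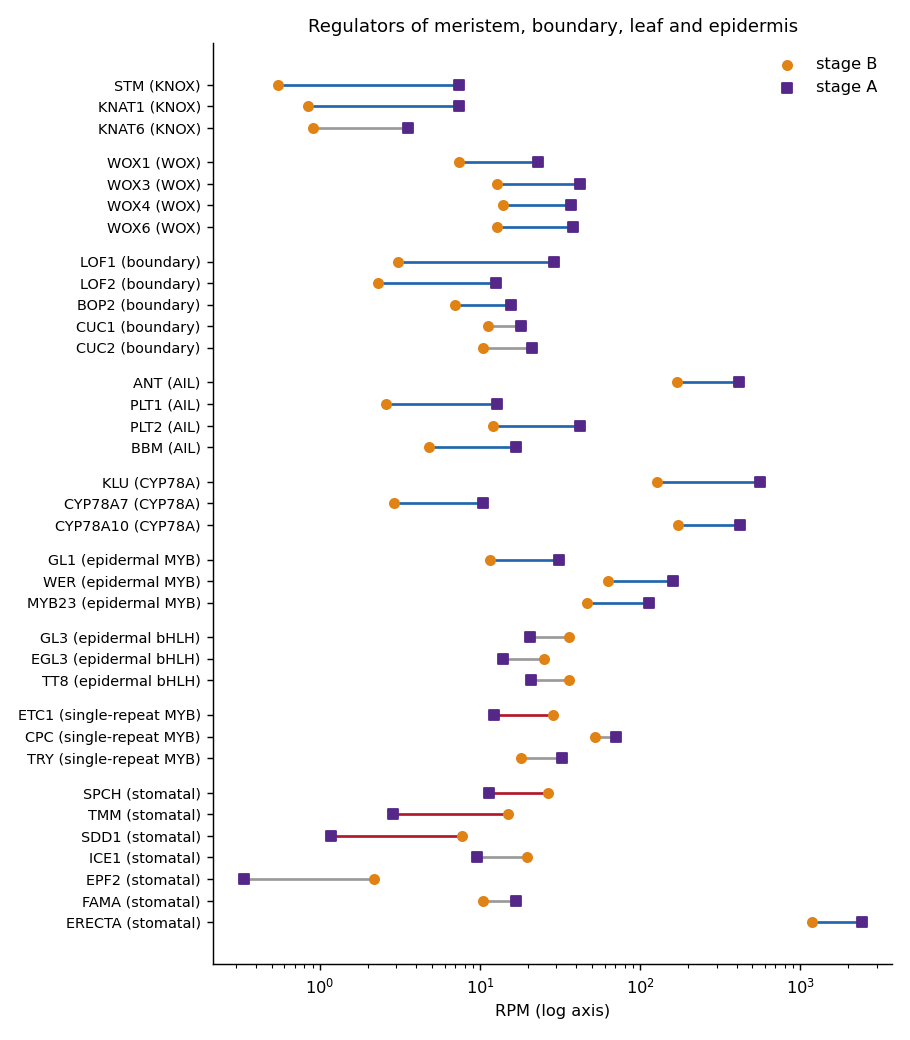
RPM on a log axis in stage B (orange circles) and stage A (purple squares) for 35 regulators in 9 groups (rows); lines are red for genes called higher in stage B, blue for genes called lower and grey for genes not called. In every named KNOX, WOX, boundary, AIL (AINTEGUMENTA-like) and CYP78A gene drawn, stage B lies left of stage A, and SPCH, TMM, SDD1 and ETC1 are the red lines. The genes drawn were picked from their lists. Members not drawn reached log2 differences of 0.35 in the KNOX and meristem list, 0.51 in the boundary list and 0.58 among CYP78A genes.

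Several meristem and organ boundary genes fell in stage B. Of 10 measured KNOX and meristem genes 2 were lower and 0 higher, and of 7 boundary genes 3 were lower and 0 higher. SHOOT MERISTEMLESS (STM, AT1G62360), a KNOX homeodomain protein that maintains the shoot meristem, had 0.544 RPM in stage B, against 7.41 in stage A, a fall of 13.6-fold (6.57 to 31.8). Its relative KNAT1 (AT4G08150) had 0.846 RPM in stage B, against 7.41 in stage A, a fall of 8.76-fold (4.71 to 17.3). The receptor CLV1 (AT1G75820), which is also part of the meristem, had 35.7 RPM in stage B, against 37.4 in stage A and was not called. At the boundary, LOF2 (MYB105, AT1G69560) had 2.30 RPM in stage B, against 12.5 in stage A, a fall of 5.43-fold (3.62 to 8.25). BOP2 (AT2G41370) had 6.95 RPM in stage B, against 15.7 in stage A. CUC2 (AT5G53950), a NAC protein that separates organs, had 10.4 RPM in stage B, against 21.2 in stage A, and was called lower only after scaling. The summed levels were 75.1 RPM in stage B, against 116 in stage A for the meristem list, and 37.6 RPM in stage B, against 101 in stage A for the boundary list. CUC3 (AT1G76420), a relative of CUC2, had 0.423 RPM in stage B and 0 reads in stage A, which allows up to 0.505 RPM. The part of the share of meristem tissue in these values was not tested.

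The WUSCHEL-related homeobox (WOX) family, gathered after its values were seen, gave 4 called lower and 0 higher of 5 measured members. WOX1 (AT3G18010) and WOX3 (PRS, AT2G28610) drive growth of the leaf margin and blade in Arabidopsis. WOX1 had 7.43 RPM in stage B, against 23.1 in stage A, a fall of 3.10-fold (2.42 to 3.99). WOX3 had 12.7 RPM in stage B, against 42.3 in stage A, a fall of 3.33-fold (2.76 to 4.02). WOX4 (AT1G46480), which maintains vascular stem cells, had 13.9 RPM in stage B, against 37.2 in stage A, and WOX6 (AT2G01500) had 12.7 RPM in stage B, against 37.9 in stage A. WOX13 (AT4G35550) did not reach the minimum, with 1.93 RPM in stage B, against 2.86 in stage A. Homeobox and homeodomain-like proteins together gave 16 lower (10.1%) and 3 higher (1.89%) of 159, beside 3.10% and 7.47% of all genes.

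The leaf growth list had 2 higher and 2 lower of 18, with a median of -0.05. Each count is 11.1%, beside 7.47% higher and 3.10% lower of all genes. Its lower members were KLUH and AINTEGUMENTA, and its higher members GIF1 and GIF2. The cytochrome P450 KLUH (KLU, CYP78A5, AT1G13710), which prolongs proliferation in young organs, had 128 RPM in stage B, against 558 in stage A, a fall of 4.36-fold (4.13 to 4.61). CYP78A10 (AT1G74110) had 172 RPM in stage B, against 418 in stage A, a fall of 2.44-fold (2.31 to 2.57). CYP78A7 (AT5G09970) had 2.90 RPM in stage B, against 10.4 in stage A. The remaining 2 of 5 measured CYP78A genes, a family gathered after its values were seen, were not called. AINTEGUMENTA (ANT, AT4G37750), an AP2 protein that sets organ size, had 169 RPM in stage B, against 414 in stage A, a fall of 2.45-fold (2.32 to 2.58). Of 8 AINTEGUMENTA-like genes, gathered after their values were seen, 4 were lower and 0 higher, including PLT1 (AT3G20840), PLT2 (AT1G51190) and BABY BOOM (AT5G17430), which maintain root and embryo stem cells. PLT2 had 12.1 RPM in stage B, against 42.1 in stage A, a fall of 3.47-fold (2.87 to 4.20). GIF1 and GIF2 are coactivators that work with growth-regulating factors. GIF1 (AT5G28640) had 41.0 RPM in stage B, against 13.5 in stage A, a rise of 3.04-fold (2.41 to 3.88). GIF2 (AT1G01160) had 10.4 RPM in stage B, against 4.55 in stage A and was not called after scaling.

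Cell division was described by lists for replication, cyclins, histones and microtubules. Of 31 DNA replication genes 5 were lower (16.1%, against 3.10% of all genes) and 0 higher, with a median of -0.43. After scaling 9 were lower and 0 higher. Origin recognition complex protein 6 (AT1G26840), which marks replication origins, had 47.5 RPM in stage B, against 119 in stage A, a fall of 2.51-fold (2.27 to 2.79). The catalytic subunit of DNA polymerase epsilon (AT1G08260) had 321 RPM in stage B, against 725 in stage A, a fall of 2.26-fold (2.17 to 2.35). Of 62 cyclins and cyclin-dependent kinases 6 were lower (9.68%) and 1 higher (1.61%), beside 3.10% and 7.47% of all genes. Among the lower ones were A3-type cyclins, which act around S phase: cyclin A3;1 (AT5G43080) had 144 RPM in stage B, against 342 in stage A, a fall of 2.37-fold (2.23 to 2.52). Of 46 histones 2 were higher (4.35%, below the 7.47% of all genes) and 0 lower, and 0 called in either direction after scaling. Of 48 kinesins, tubulins and microtubule proteins 0 were called.

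Ribosomal proteins were called mostly higher. Of 341 nuclear genes, 68 were higher (19.9%; 48 genes after scaling) and 10 lower (2.93%), beside 7.47% and 3.10% of all genes. Their median was 0.46. The 68 included proteins of plastid ribosomes, such as a ribosomal L5P family protein (AT4G01310), which had 191 RPM in stage B, against 34.2 in stage A and rose 5.59-fold (4.85 to 6.48). For cytosolic ribosomes, a ribosomal protein S21e (AT3G53890) had 219 RPM in stage B, against 34.0 in stage A, a rise of 6.43-fold (5.58 to 7.45). Ribosomal protein S15A D (AT3G46040) was among the 10 genes that gained most RPM, with 2007 RPM in stage B, against 597 in stage A, a rise of 3.36-fold (3.25 to 3.48). A nuclear gene of the S19 family (AT5G09490), a locus apart from the plastid S19 above, fell 27.9-fold (13.5 to 66.8). It had 0.483 RPM in stage B, against 13.5 in stage A. Ribosomal genes occur as near-identical copies, so the values of single copies are uncertain.

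Glycine-rich RNA-binding proteins, a set made after the values were seen, rose in 4 of 5 measured members. Such proteins bind and chaperone RNA, several of them in mitochondria or in response to cold. Glycine-rich RNA-binding protein 5 (AT1G74230) had 201 RPM in stage B, against 37.2 in stage A, a rise of 5.41-fold (4.72 to 6.22). Protein 4 (AT3G23830) had 154 RPM in stage B, against 34.3 in stage A, and protein 2 (AT4G13850) had 183 RPM in stage B, against 42.3 in stage A. A clock-regulated RNA-binding protein (AT4G39260) had 80.5 RPM in stage B, against 17.2 in stage A, a rise of 4.68-fold (3.83 to 5.79).

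Lists of wall and secreted proteins differed in their shares. Of 110 pectin genes 5 were higher (4.55%) and 4 lower (3.64%), and of 67 genes for cellulose, lignin and laccases 5 were higher (7.46%) and 1 lower (1.49%), beside 7.47% and 3.10% of all genes. Of 43 beta-glucosidases, which release glucose from glucosides of hormones, defence compounds and wall precursors, 16 were higher and 0 lower, and the count after scaling was also 16. Beta glucosidase 12 (AT5G42260) had 153 RPM in stage B, against 14.3 in stage A. Beta glucosidase 17 (AT2G44480), chosen after its values were seen, had 369.5 RPM in stage B, against 70.2 in stage A, a rise of 5.26-fold (4.77 to 5.83). Thioglucoside glucosidase 3 (AT5G48375), whose family splits glucosinolates in Arabidopsis, had 124 RPM in stage B, against 17.8 in stage A, a rise of 6.97-fold (5.73 to 8.56). These genes are alike in sequence, so the values of single copies are uncertain, although no pair of the 43 shared all 5 values. Germins and cupins gave 4 higher (16.0%) and 0 lower of 25. Germin-like protein 1 (AT1G72610), of a family of apoplastic manganese proteins, had 97.8 RPM in stage B, against 8.08 in stage A, and germin 3 (AT5G20630) had 73.0 RPM in stage B, against 8.92 in stage A, a rise of 8.18-fold (6.21 to 11.0). Of 13 early nodulin-like proteins, membrane-anchored relatives of copper proteins gathered after their values were seen, 6 were higher and 0 lower. Early nodulin-like protein 17 (AT5G15350) had 26.5 RPM in stage B, against 5.39 in stage A, a rise of 4.91-fold (3.43 to 7.27).

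Wall loosening enzymes were higher by one of their families. Of 59 expansins and xyloglucan endotransglucosylase/hydrolases (XTHs), which cut and rejoin wall xyloglucan, 8 were higher (13.6%, against 7.47% of all genes) and 0 lower. All 8 were XTHs, and 3 of them had the whole counting interval at 2-fold or more. The list median was 0.20, against 0.10 for all genes. XTH9 (AT4G03210) had 821 RPM in stage B, against 186 in stage A, a rise of 4.42-fold (4.16 to 4.70). XTH14 (AT4G25820) had 57.1 RPM in stage B, against 18.4 in stage A. Their later levels differed: XTH9 was highest in stage B, with 314 RPM in stage C and 351 RPM in stage D, whereas XTH14 reached 494 RPM in stage D. Extensin 4 (AT1G76930), a structural wall protein, went lower, with 3 reads (0.181 RPM) in stage B, against 9.43 RPM in stage A, a ratio of 52.0 with an interval of 16.9 to 259.9.

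Every called gene of the cuticle list was lower. Of 47 genes for cuticle and wax 10 were lower (21.3%, against 3.10% of all genes) and 0 higher, with a median of -0.47. CER1 (AT1G02205), which makes wax alkanes, had 168 RPM in stage B, against 447 in stage A, a fall of 2.66-fold (2.52 to 2.81). CER5 (AT1G51500), an exporter of wax, had 86.4 RPM in stage B, against 224 in stage A, a fall of 2.60-fold (2.41 to 2.80). CER4 (AT4G33790), which makes primary alcohols, had 4.29 RPM in stage B, against 15.5 in stage A. CER1 was chosen after its values were seen. CER5 was also the member called of 5 epidermis markers. PDF1 (AT2G42840), another of those markers, had 9.30 RPM in stage B, against 7.74 in stage A.

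Water channels and ion transporters were each called in a minority of members. Of 29 aquaporins 6 were higher (20.7%, against 7.47% of all genes; 4 after scaling) and 0 lower. At the vacuole, tonoplast intrinsic protein 2 (AT3G26520) had 74.8 RPM in stage B, against 17.2 in stage A, a rise of 4.36-fold (3.56 to 5.39). At the plasma membrane, intrinsic protein 1A (AT3G61430) had 1416 RPM in stage B, against 374 in stage A, a rise of 3.79-fold (3.63 to 3.96). Of 14 ion transport genes 1 was higher (7.14%) and 2 were lower (14.3%, against 3.10% of all genes). The plasma membrane sodium exporter SOS1 (AT2G01980) had 153 RPM in stage B, against 169 in stage A. Its activating kinase SOS2 (AT5G35410) fell, with 98.0 RPM in stage B, against 202 in stage A, 2.06-fold (1.91 to 2.23). The calcium sensor SOS3 (AT5G24270) had 29.2 RPM in stage B, against 33.7 in stage A. Vacuolar sodium exchangers stayed inside the limits of the rule: NHX1 (AT5G27150) had 95.9 RPM in stage B, against 100.2 in stage A, and NHX2 (AT3G05030) had 72.8 RPM in stage B, against 93.4 in stage A. The sodium carrier HKT1 (AT4G10310) had 3.62 RPM in stage B, against 3.20 in stage A, and reached 161 RPM in stage E. The potassium channel SKOR (AT3G02850), which loads xylem, had 51.3 RPM in stage B, against 160.3 in stage A, a fall of 3.12-fold (2.84 to 3.43). The member that rose was the vacuolar anion exchanger CLC-A (AT5G40890), with 17.5 RPM in stage B, against 6.40 in stage A, 2.74-fold (1.95 to 3.95). The plants were in tissue culture, and no salt treatment is named in the labels.

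Proton pumps, which energise such transport, gave 4 higher (12.5%, against 7.47% of all genes) and 0 lower of 32. After scaling 1 of the 32 was higher, a share below the 5.33% of all genes. That one was subunit G2 of the vacuolar ATPase (AT4G23710), with 28.7 RPM in stage B, against 8.92 in stage A, a rise of 3.22-fold (2.42 to 4.36). The vacuolar pyrophosphatase AVP1 (AT1G15690) had 503 RPM in stage B, against 241 in stage A, and was not called after scaling. Vesicle trafficking genes move cargo to membranes. Of 99 SNARE and exocyst genes 5 were higher (5.05%) and 1 lower (1.01%), with a median of 0.00, both shares below those of all genes. Syntaxin 112 (AT2G18260), related to the syntaxin of the dividing cell plate, had 10.7 RPM in stage B, against 2.69 in stage A, a rise of 3.97-fold (2.38 to 7.09). Among 93 Rab GTPases and coat proteins 6 were higher (6.45%) and 2 lower (2.15%), also below the shares of all genes. RABA1d (AT4G18800), of a clade that carries cargo to the cell surface, had 78.9 RPM in stage B, against 23.1 in stage A, and RABA5e (AT1G05810) had 31.2 RPM in stage B, against 8.59 in stage A.

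**Figure D4:**
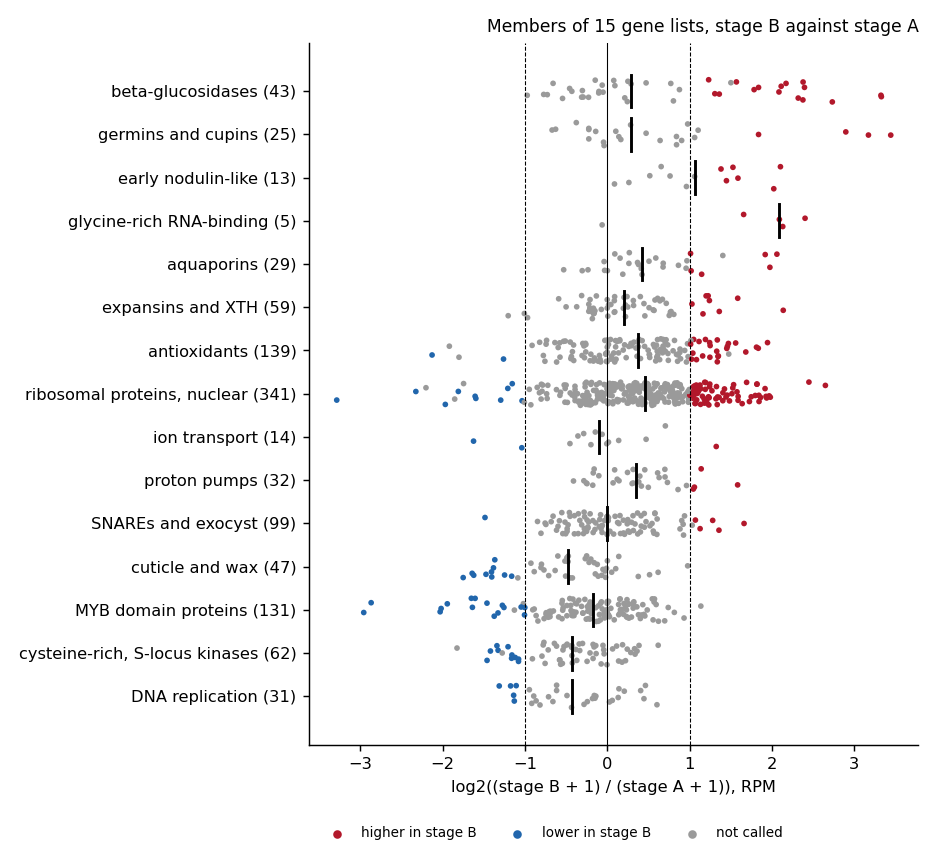
Each point is 1 gene, placed by its log2 difference of stage B minus stage A on RPM + 1 (x) in 15 lists (rows, number of measured members in parentheses); black bars are medians and dashed lines mark the threshold of 1. Beta-glucosidases and germins reach beyond 3 on the right, whereas in cuticle and wax, the list of described MYB domain proteins (which leaves out ETC1), cysteine-rich and S-locus kinases and DNA replication each called member lies on the left.

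Of 27 genes in the gibberellin and GRAS list 3 were higher (11.1%; 2 after scaling) and 1 was lower (3.70%), near the 7.47% and 3.10% of all genes. The DELLA proteins GAI (AT1G14920) and RGA (AT2G01570) restrain growth until gibberellin removes them. GAI had 27.1 RPM in stage B, against 4.38 in stage A, a rise of 6.19-fold (4.17 to 9.59). RGA had 22.5 RPM in stage B, against 6.40 in stage A, a rise of 3.52-fold (2.52 to 5.06). These 2 are close paralogs, so the division of reads between them is uncertain. A pair of enzymes of gibberellin synthesis that fell was put together from other lists after the values were seen. They are ent-copalyl diphosphate synthase (GA1, AT4G02780) from the terpene synthase list and ent-kaurenoic acid oxidase (KAO1, AT1G05160) from the cytochrome P450 list. Genes of gibberellin synthesis were not counted as a set of their own. GA1 had 2.48 RPM in stage B, against 10.1 in stage A, a fall of 4.08-fold (2.70 to 6.22). KAO1 had 16.9 RPM in stage B, against 54.2 in stage A, a fall of 3.22-fold (2.73 to 3.79). GAST1 protein homolog 1 (AT1G75750), of a gibberellin-regulated peptide family, was the lower member of the gibberellin list, with 0 reads in stage B, which allows up to 0.181 RPM, and 5.56 RPM in stage A.

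For jasmonate, 2 of 21 genes were higher (9.52%) and 1 lower (4.76%), near the shares of all genes. OPR3 (AT2G06050), which makes the jasmonate precursor in peroxisomes, had 129 RPM in stage B, against 29.6 in stage A, a rise of 4.35-fold (3.73 to 5.11). Jasmonic acid carboxyl methyltransferase (JMT, AT1G19640), which makes methyl jasmonate, had 50.7 RPM in stage B, against 3.54 in stage A. Lipoxygenase 2 (AT3G45140), at the start of the pathway in plastids, had 5.25 RPM in stage B, against 12.6 in stage A. Cytokinin genes and purine permeases gave 1 higher and 6 lower of 40. Cytokinin oxidase 6 (AT3G63440), which degrades the hormone, had 2.05 RPM in stage B, against 13.8 in stage A, a fall of 6.72-fold (4.46 to 10.3). Purine permease 7 (AT4G18197) had 1.33 RPM in stage B, against 13.8 in stage A. The response regulator ARR3 (AT1G59940) was the member that rose, with 7.79 RPM in stage B, against 2.19 in stage A. Auxin genes were called in both directions, 13 higher (9.42%) and 8 lower (5.80%) of 138, near the 7.47% and 3.10% of all genes, and 8 were higher and 9 lower after scaling. Small auxin-responsive (SAUR) genes were among the extremes of both. AT4G38860 had 23.9 RPM in stage B, against 3.70 in stage A, and AT2G46690 had 15.5 RPM in stage B, against 97.3 in stage A. Proline dehydrogenases, which degrade the osmolyte proline, were taken up after their values were seen, and 2 of 2 measured were higher. Described in the table as methylenetetrahydrofolate reductase family proteins, AT5G38710 had 83.7 RPM in stage B, against 10.1 in stage A, and AT3G30775 had 67.3 RPM in stage B, against 10.9 in stage A. They rose 8.28-fold (6.39 to 10.9) and 6.15-fold (4.79 to 8.03).

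Receptor-like kinases of the cysteine-rich and S-locus types, several of which act in defence, gave 10 lower (16.1%) and 0 higher of 62. Their median was -0.43. The cysteine-rich kinase AT1G70530 had 12.6 RPM in stage B, against 33.3 in stage A, a fall of 2.65-fold (2.17 to 3.24). Kinases with leucine-rich repeats gave 3 lower (1.72%) and 6 higher (3.45%) of 174, both below the 3.10% and 7.47% of all genes. Antioxidant genes gave 24 higher (17.3%; 18 genes after scaling) and 2 lower (1.44%) of 139, with a median of 0.37. The iron superoxide dismutases, plastid enzymes that remove superoxide, were higher in all 3 FSD genes: FSD3 (AT5G23310) had 138 RPM in stage B, against 38.1 in stage A, FSD2 (AT5G51100) had 171 RPM in stage B, against 47.8 in stage A, and FSD1 (AT4G25100), chosen after its values were seen, had 35.3 RPM in stage B, against 13.3 in stage A.

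Genes that were higher in stage B divided over the later stages. Of the 1357, 402 had their highest value in stage B itself, 396 in C, 378 in D and 181 in E. Of the 563 lower genes, 397 were highest in stage A and 88 in stage E. The genes that stood out in stage B itself were of mixed kind. A Plectin/S10 domain protein (AT5G41520), which matches a ribosomal protein of the small subunit, had 43.4, 268, 84.1, 60.9 and 50.1 RPM over stages A to E. A thaumatin superfamily protein (AT1G75800), of a family known from defence, had 5.89, 21.9, 2.87, 4.52 and 3.17 RPM over the same stages. Small nuclear ribonucleoprotein F (AT4G30220), a splicing component, had 70.7, 216, 62.1, 62.4 and 70.9 RPM. The coactivator GIF1 was also among the 10 genes with the largest ratio of stage B to the next stage. The group further held a 60S acidic ribosomal protein, a ribosomal protein S21e and 4 proteins of unknown function. Of the unknown ones, AT3G11590 had 13.3, 71.3, 10.4, 17.1 and 21.6 RPM. The largest rise of any gene, singled out after its values were seen, was in AT4G03540, with 23.1 RPM in stage B, against 0.337 (2 reads) in stage A, a ratio of 68.5 (18.8 to 568).

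**Figure D5:**
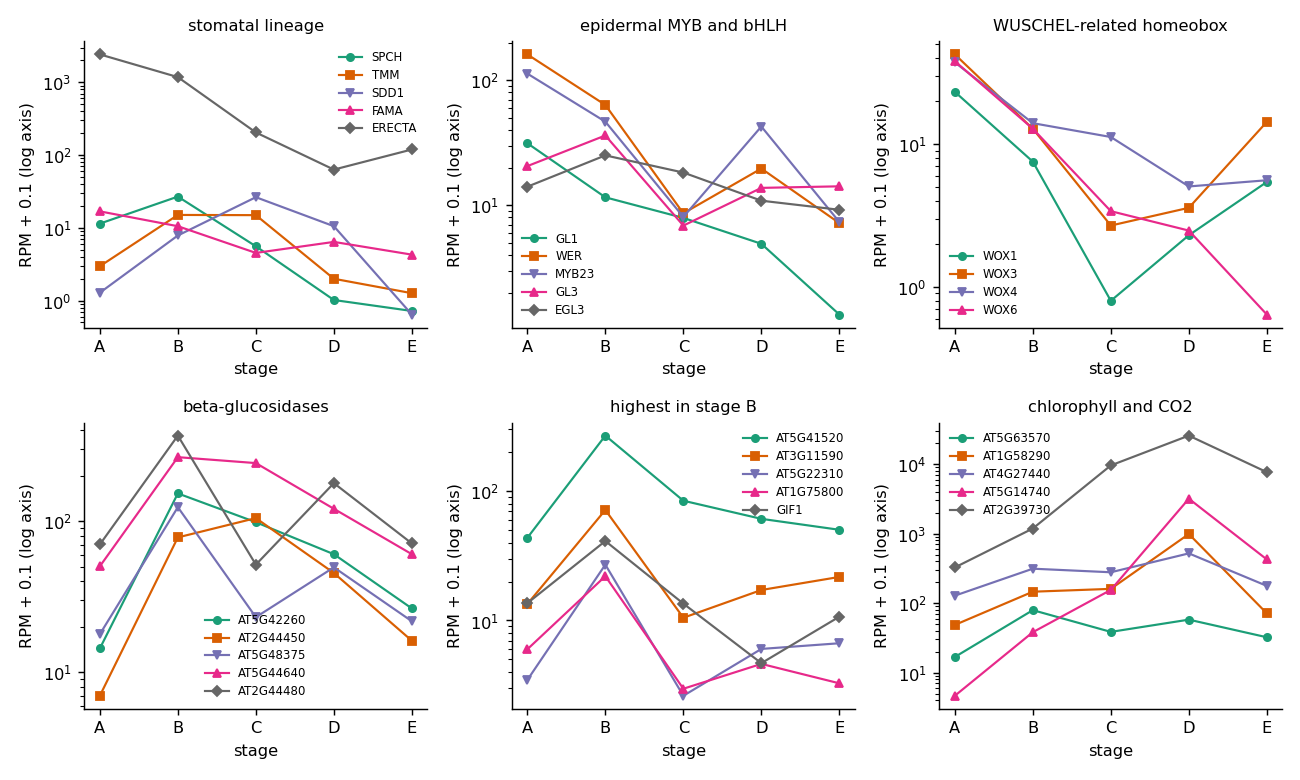
RPM + 0.1 on a log axis (y) over stages A to E (x), 1 library a stage, for genes of 6 groups named in the panels. SPCH, GL3, EGL3 and the genes of the panel on stage B have their highest point at stage B, the WOX genes, GL1 and WER have theirs at stage A, and the genes of chlorophyll and CO2 other than AT5G63570 have theirs at stage D.

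Stage A differed from every other stage by a small set of loci. In 12 loci the stage A value was more than 10 times that of each other stage, and together they took 3.19% of stage A reads and 0.141% of stage B reads. A base excision repair family protein (AT4G12740) had 93.9 RPM in stage B, against 4749 in stage A. A Tudor/PWWP/MBT superfamily protein (AT5G40340) had 279 RPM in stage B, against 4878 in stage A, and an F-box protein (AT1G47300) had 90.7 RPM in stage B, against 3115 in stage A. Of the 12, 8 have descriptions that name no function. Taking them out of the library totals left the counts over the whole table within 1.5 times, and moved 3 list counts further: lower guard cell genes to 2 against 1, higher histones to 0 against 2, and lower pentatricopeptide repeat genes to 16 against 9. Some transcripts known from seeds were lower in stage B. Seed gene 1 (AT4G26740), a caleosin of oil bodies, had 3 reads (0.181 RPM) in stage B, against 7.91 RPM in stage A, a ratio of 43.7 (14.1 to 219), and the seed peroxiredoxin AT1G48130 had 0.423 RPM in stage B, against 5.22 in stage A. Of 19 seed and late embryogenesis genes, a list made after the values were seen, 2 were lower (10.5%) and 0 higher, with a median of -0.22. The list as a whole was present in every stage, with sums of 761, 816, 599, 782 and 779 RPM over stages A to E.

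Markers of other tissues moved in part. Each list has few members, so 1 call makes a large share, beside 7.47% higher and 3.10% lower of all genes. Of 4 mesophyll markers 2 were higher, with a sum of 1277 RPM in stage B, against 699 in stage A. Of 6 xylem markers 1 was higher, laccase 17 (AT5G60020), with 15 RPM in stage B, against 2.69 in stage A, and the list summed to 157 RPM in stage B, against 109 in stage A. Of 3 phloem markers 1 was higher, SEOR1 (AT3G01680), with 22.5 RPM in stage B, against 7.91 in stage A. Of 4 root markers 1 was lower, PLT1, and the list summed to 107 RPM in stage B, against 111 in stage A. Of 5 epidermis markers 1 was lower, CER5, and the list median was -0.19. Their sum, in which CER5 counts strongly, was 279 RPM in stage B, against 491 in stage A. None of these markers was at 0 reads in either stage. The part of tissue composition in the results above was not tested.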

How the data were processed

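Poly(A) RNA of pooled first true leaves was sequenced, 1 library per stage in the table. The authors deposited 1 table of 18327 genes, each paired with an Arabidopsis locus. Its values are called RPKM per the file headers, but the deposited values are RPM: within a tolerance of 0.001 reads, every value is a whole multiple of 1 step shared by all genes of a stage, so whole reads were recovered. The aligner, counter and reference were not given in the sources used here. From the deposited values log2((stage B + 1)/(stage A + 1)) was computed with numpy 2.4.6 and pandas 2.3.3 in python 3.11.15, for 18165 genes that reached 1 RPM in any stage. Genes were called at a size of 1 with 5 RPM in the higher stage. Folds of RPM carry exact 95% binomial intervals from the recovered reads (scipy 1.17.1). Such intervals, and the floor of 3 reads, cover counting error only. With 1 library per stage there is no test of the conditions, so no count model was run.

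The genes named are a part of the 15 largest rises and the 15 largest falls among genes of known function, the 10 that gained and the 10 that lost most RPM, the 3 that rose and the 3 that fell most in each list, all members of the patterning and ion transport lists, and the 10 most particular to either stage; others are said to be chosen after their values were seen. The 76 gene lists and the members were chosen with earlier results of these data known. Alternatives were 2 scalings, other pseudocounts, other minimums, a 4-fold rule, the interval rule, removal of loci that stood apart in stage A, and thinning of stage B reads. No sequence was used here.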

Additional observations from a re-analysis of the deposited data

How the results depend on the processing

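No called result changed direction under any alternative, but these alternatives could hardly have produced a reversal. Pseudocounts, minimums and stricter rules cannot change the sign of a difference. The 2 scalings changed the ratio of stage B to stage A by a factor of 1.108 or 1.083, far less than the 2-fold threshold. Against 1920 called genes (1357 higher and 563 lower), a pseudocount of 5 RPM gave 1128 (804 higher and 324 lower), and a minimum of 20 RPM gave 1169 (851 and 318). The 4-fold rule gave 203 (107 and 96), and the rule on the whole counting interval gave 1081 (723 and 358). Scaling gave 9 lower DNA replication genes over the 5 stages and 8 over stages B and A alone, against 5. The minimum of 20 RPM left 5 lower genes for cuticle and wax, 11 plastid loci and 10 MYB proteins. The 4-fold rule left 16 lower plastid loci, 4 lower MYB proteins, 0 lower genes in cuticle and wax and 0 in DNA replication. It left 10 higher beta-glucosidases, 2 ribosomal proteins, 1 light reaction gene and 1 tetrapyrrole gene. The interval rule left 43 higher ribosomal proteins. Stricter rules keep fewer genes by construction, and the cause of the change with scaling was not tested. Over the named genes, 253 of 2952 values fell below the threshold and 16 passed it. Stage A has the fewest reads, which limits genes of a few RPM. No paired analysis was possible because each stage has 1 library.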

Other observations

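Sugar exporters and remorins, gathered after their values were seen, were not described above. Of 11 SWEET and MtN3 genes, which export sugars across membranes, 3 were lower in stage B and 0 higher. AT5G50800 had 10.4 RPM in stage B, against 31.5 in stage A, and reached 687 RPM in stage E. Of 12 remorins, proteins of membrane microdomains, 4 were higher and 0 lower, with a summed level of 221 RPM in stage B, against 126 in stage A. Of 7 PLATZ zinc-binding proteins, also gathered after their values were seen, 3 were lower and 0 higher. Their summed level was 60.6 RPM in stage B, against 156 in stage A.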
